A study of Mus musculus with 8 samples.

Results

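Arcuate feeding peptides and the receptors for neuropeptide Y were described in fluorescently sorted somatostatin (SST) neurons of the tuberal nucleus (TN), as a set of 9 genes among the 35968 genes measured. They were taken by symbol: the peptide genes *Agrp*, *Npy*, *Pomc*, *Cartpt*, *Ghrh* and *Kiss1* and the receptor genes *Npy1r*, *Npy2r* and *Npy5r*. Of these, 8 members had enough counts to be tested between the sexes and *Kiss1* did not. The samples were 4 female and 4 male *Sst-Cre* mice (genotype Sst tm2.1(cre)Zjh/J / +, on a C57BL/6J background), cycling females and gonadally intact males, injected as adults, with no exact age given for these samples in the sources used here. All 8 mice carried the same Cre allele and had received AAV2-flex-tdTomato in the TN, and 1 RNA library was made per mouse from cells selected as live, nucleated and red. Cre came from the *Sst* locus, so a red cell had expressed *Sst* at some time in a region that the virus reached, which may include the neighbouring arcuate nucleus (ARC), and no library of unsorted or unlabeled cells was analysed here. The libraries are bulk RNA, in which a few cells with much of a transcript and many cells with little of it cannot be told apart, nor can fewer cells of a type and less RNA per cell.

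The ARC lies beside the third ventricle, close to the TN, and holds 2 well known and opposed groups of feeding neurons. AgRP neurons make agouti-related peptide (*Agrp*) and neuropeptide Y (*Npy*) and promote feeding, while POMC neurons make pro-opiomelanocortin (*Pomc*), the precursor of melanocortin peptides that restrain it, and AgRP blocks the melanocortin receptors that POMC peptides activate. Neuropeptide Y acts through G protein-coupled receptors, of which Y1 (*Npy1r*) and Y5 (*Npy5r*) are tied to feeding and Y2 (*Npy2r*) is the usual autoreceptor on NPY neurons. *Cartpt* encodes the CART peptides, *Ghrh* the hypothalamic hormone that drives growth hormone release, and *Kiss1* kisspeptin, which drives the neurons that control reproduction.

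Promoters are shown for *Npy* and *Npy1r*, which varied closely together from mouse to mouse, for *Pomc*, for *Cartpt*, whose relations to the others did not pass the test, and for the alternative starts of *Ghrh*. Each line gives the 250 bases before a transcription start, 5′ to 3′ on the gene's strand, from RefSeq on build GRCm38.p6. A gene can have other starts. The *Npy1r* line precedes the start of Npy1r-201 and lies partly within the gene bounds given below, and Npy1r-202 held 36.5% of the *Npy1r* counts. The lines of *Cartpt* and *Ghrh* lie wholly within their gene bounds. Capitals mark matches on either strand. A TATA box was searched as TATAAA. A GC box was searched as GGGCGG. The full cAMP response element was searched as TGACGTCA. The *Npy* sequence lies at chr6:49822460-49822709 (+), *Npy1r* at chr8:66697172-66697421 (+), *Pomc* at chr12:3954695-3954944 (+), *Cartpt* at chr13:99900684-99900933 (-), and *Ghrh* has a start for transcript Ghrh-202 at chr2:157337427-157337676 (-) and one for Ghrh-201 at chr2:157346656-157346905 (-).
Npy: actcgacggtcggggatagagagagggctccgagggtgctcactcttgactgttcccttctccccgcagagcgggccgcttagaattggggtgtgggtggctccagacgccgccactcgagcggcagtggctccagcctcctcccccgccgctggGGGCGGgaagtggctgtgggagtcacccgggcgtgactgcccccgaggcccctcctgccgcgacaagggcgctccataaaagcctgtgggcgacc
Npy1r: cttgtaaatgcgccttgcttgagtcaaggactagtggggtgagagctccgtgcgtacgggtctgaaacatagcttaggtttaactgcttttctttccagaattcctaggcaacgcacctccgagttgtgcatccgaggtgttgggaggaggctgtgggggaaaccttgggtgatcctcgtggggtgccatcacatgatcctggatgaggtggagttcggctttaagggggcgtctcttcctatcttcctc
Pomc: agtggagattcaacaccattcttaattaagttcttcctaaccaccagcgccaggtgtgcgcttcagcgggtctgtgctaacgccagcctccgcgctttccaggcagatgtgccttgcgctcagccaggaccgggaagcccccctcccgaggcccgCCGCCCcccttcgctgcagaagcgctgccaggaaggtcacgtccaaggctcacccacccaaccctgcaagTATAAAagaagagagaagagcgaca
Cartpt: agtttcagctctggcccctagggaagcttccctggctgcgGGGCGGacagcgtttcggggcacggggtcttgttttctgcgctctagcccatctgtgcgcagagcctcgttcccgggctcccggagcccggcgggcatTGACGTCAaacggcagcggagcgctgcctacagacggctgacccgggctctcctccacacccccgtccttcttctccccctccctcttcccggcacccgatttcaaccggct
Ghrh-202: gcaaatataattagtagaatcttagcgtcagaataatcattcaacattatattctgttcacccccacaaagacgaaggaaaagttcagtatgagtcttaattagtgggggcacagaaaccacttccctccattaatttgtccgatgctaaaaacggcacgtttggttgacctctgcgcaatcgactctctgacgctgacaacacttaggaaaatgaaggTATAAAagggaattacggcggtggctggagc
Ghrh-201: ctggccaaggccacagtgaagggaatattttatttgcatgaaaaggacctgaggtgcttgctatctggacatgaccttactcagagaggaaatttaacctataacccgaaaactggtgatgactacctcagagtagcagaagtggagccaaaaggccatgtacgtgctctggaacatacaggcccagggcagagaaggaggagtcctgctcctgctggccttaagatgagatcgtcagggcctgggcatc

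In all, 9 promoters of 8 members were in the table, and motifs were searched from 250 bases before to 50 bases after each start, over the members and over all 32851 promoters. A TATA box stood 25 bases before the *Pomc* start and 31 bases before the start of Ghrh-202, and was held by 13.6% of all promoters. The full cAMP response element of *Cartpt* stood 112 bases before its start, and 1.79% of all promoters held these letters. GC boxes were found in *Cartpt*, *Npy*, *Npy2r* and, on the opposite strand, in *Pomc*, against 35.7% of all promoters. A STAT site (searched as TTCNNNGAA), a forkhead site (searched as TGTTTAC) and the full palindrome of the estrogen response element were in none of the 9 windows and in 8.3%, 3.65% and 0.07% of all promoters. The *Npy1r* and *Npy5r* genes are neighbours on chromosome 8 and point away from each other, with RefSeq starts 9328 bases apart.

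*Npy* was the most abundant of the 9 genes. It encodes neuropeptide Y and lies on chromosome 6 from 49822710 to 49829507 of mm10 (ENSMUSG00000029819.6). Levels of different genes were compared per transcript length, in TPM (transcripts per 1000000), and *Npy* reached 688, 348, 334 and 93.4 TPM in females 1 to 4 and 1090.5, 481, 867 and 662 TPM in males 1 to 4. Its mean of 571 ± 321 TPM (SD, n = 8 mice) ranked 137 among the 24952 genes with any count. *Sst*, the gene that defined the sort, had 1188 ± 324 TPM (SD, n = 8), so that *Npy* stood at between 9.85% of the *Sst* level in female 4 and 95.7% in male 1.

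*Pomc* (chromosome 12, 3954951 to 3960642, ENSMUSG00000020660.6) and *Cartpt* (chromosome 13, 99898489 to 99901091, ENSMUSG00000021647.7) came next, at 144 ± 72.6 and 141 ± 26.0 TPM (SD, n = 8). The next gene in the order was *Agrp* (chromosome 8, 105566698 to 105637393, ENSMUSG00000005705.10), with 89.0 ± 60.5 TPM, and *Ghrh* (chromosome 2, 157329497 to 157347506, ENSMUSG00000027643.9) had 48.5 ± 20.8 TPM. Of the receptors, *Npy2r* (chromosome 3, 82538383 to 82548084) had 30.7 ± 8.77 TPM, *Npy1r* (chromosome 8, 66697192 to 66706792) 20.2 ± 3.89 TPM and *Npy5r* (chromosome 8, 66679965 to 66688128) 5.75 ± 2.43 TPM. Between neighbours in this order, *Npy* lay above *Pomc* by 1.89 ± 0.560 on the log2(TPM + 0.1) scale (SD, n = 8), *Npy2r* above *Npy1r* by 0.58 ± 0.288 and *Npy1r* above *Npy5r* by 1.87 ± 0.373, each in 8 of 8 mice (exact sign-flip permutation test within mice, 2-sided, p = 0.0078, the smallest it can give, adjusted p = 0.0208 over 8 pairs). *Kiss1* is given below, and the other neighbours did not pass an adjusted p under 0.05 in the same exact test. Adjusted p was 0.648 for *Pomc* and *Cartpt* (higher in 4 of 8 mice), 0.075 for *Cartpt* and *Agrp* (6 of 8), 0.536 for *Agrp* and *Ghrh* (5 of 8) and 0.125 for *Ghrh* and *Npy2r* (6 of 8). The order was set by the mean TPM of the same 8 mice, so the pairs tested come from these values.

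**Figure D1:**
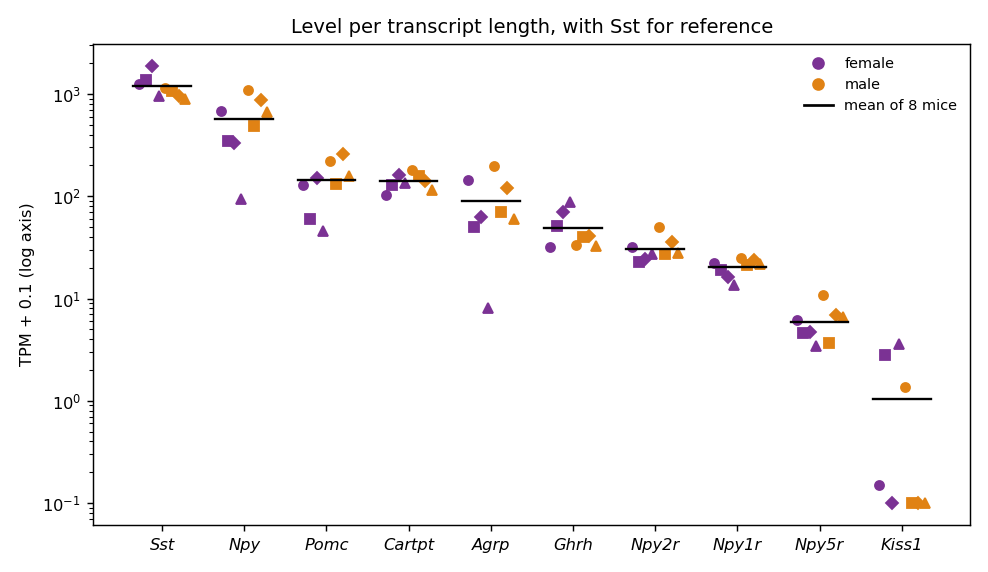
Levels of *Sst* and the 9 genes in TPM (plus 0.1) on a log axis, with a point for each mouse (females purple, males orange; marker shapes as mouse numbers 1 to 4) and a line at the mean of 8 mice. *Npy* spans 93.4 to 1090.5 TPM below *Sst*, and *Kiss1* lies at 3.50 TPM or less.

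*Kiss1* (chromosome 1, 133321875 to 133329901) was at or near the limit of detection, and its value is uncertain. Females 1 to 4 gave 0, 4, 0 and 7 counts for it and males 1 to 4 gave 3, 0, 0 and 0, where 3 counts, taken as the limit of detection, correspond to 0.148 to 0.458 CPM (counts per 1000000) in a library. Every 31-base word of its transcripts also occurs in a readthrough gene model, *Gm28040*, or in *Golt1a*, and the 2 *Gm28040* gene entries together with *Kiss1* held 24, 30, 22 and 7 counts in the females and 24, 17, 1 and 14 in the males. *Npy5r*, the lowest of the other members, lay above the *Kiss1* estimate by 3.98 ± 2.47 on the log2(TPM + 0.1) scale, in 7 of 8 mice (exact sign-flip permutation test, adjusted p = 0.0313). How reads of this locus divide between the genes is therefore kallisto's estimate. At most 4.58 CPM fell on *Kiss1* and the 2 *Gm28040* entries together in any mouse, and at most 0.504 CPM on *Golt1a*. Of the genes that accompany *Kiss1* in KNDy neurons, the arcuate kisspeptin cells, *Tac2* (neurokinin B) lay between 2.95 and 29.5 CPM and *Pdyn* (prodynorphin) between 47.7 and 105 CPM.

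The sex comparison asked whether these genes differ between SST neurons of females and males, on CPM values scaled between libraries (edgeR's TMM). No member passed an adjusted p under 0.05 over the 15194 genes tested (0 of 8 tested members in edgeR's quasi-likelihood test, with p-values adjusted by the Benjamini-Hochberg method, against 0.158% of all genes in either direction, 0.112% higher in females and 0.0461% higher in males), nor with DESeq2 (0 of 8, against 7.36%). At an unadjusted p under 0.05, 5 members differed in edgeR's test, *Npy*, *Pomc*, *Npy1r* and *Npy2r* with higher values in males (10.7% of all genes) and *Ghrh* with higher values in females (9.86%), where 20.5% of all genes did so in either direction. The sexes did not overlap in 2 of the 8, *Pomc* and *Npy1r*, both with all males above all females, as in 3.94% of all genes, where 10.4% did not overlap in either direction. The log2 fold change was below 0, with the male mean higher, in 7 of 8 members and in 50.6% of all genes.

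*Pomc* stood at 58.7, 26.7, 56.7 and 20.3 CPM in females 1 to 4 and at 97.4, 63.1, 117 and 74.4 CPM in males 1 to 4. Every male lay above every female, and the lowest male was close to the highest female. The means were 40.6 ± 19.9 and 88.1 ± 24.2 CPM (SD, n = 4 per sex), a log2 fold change (female minus male) of -1.11 with a standard error of 0.347 (edgeR's adjusted p = 0.146). An exact permutation test of log2 CPM gave p = 0.0286, the smallest that 4 mice against 4 allow. Set against *Sst* in the same mouse, *Pomc* was 6.85 ± 2.78% of the *Sst* TPM in females and 19.1 ± 6.33% in males, again without overlap (exact permutation test, p = 0.0286, n = 4 per sex). Any full separation of the sexes gives this p, so it only restates the lack of overlap. The mean of *Sst* was itself lower in males (log2 fold change 0.32, edgeR's adjusted p = 0.302), which widens the difference in this share.

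*Pomc* is also made by pituitary corticotrophs, and pituitary markers were looked at beside it. The pituitary hormone genes *Gh* and *Prl* were at 0 in all 8 libraries, and the summed level of the 7 pituitary markers was 2.76 to 6.93 CPM in females and 4.91 to 12.3 CPM in males. *Cga*, the alpha subunit shared by pituitary glycoprotein hormones, had 4.11 CPM in male 3, which also had the highest *Pomc*, 1.01 CPM in male 2, 0.0493 CPM in female 3 and 0 in the other 5 mice. *Tbx19*, a corticotroph transcription factor, lay between 0.987 and 5.62 CPM. It was highest in male 1 and had 3.49 CPM in male 3, and its r with *Pomc* within the sexes was -0.70. The part of these pituitary markers in the *Pomc* values was not tested.

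*Npy* in CPM was 157, 84.8, 66.6 and 20.5 in females and 251, 118, 198 and 159 in males. Female 1 lay within the male range and the other 3 females below it. The means were 82.3 ± 56.9 and 182 ± 56.7 CPM (SD, n = 4), a log2 fold change of -1.15 (standard error 0.491; edgeR, adjusted p = 0.233). As a share of *Sst* TPM, whose mean was lower in males, *Npy* was 27.1 ± 19.9% in females and 76.4 ± 23.1% in males (exact permutation test, p = 0.0571, n = 4 per sex). *Agrp* followed the same mice at a lower level, with 41.2, 15.3, 15.4 and 2.16 CPM in females and 56.3, 21.5, 34.1 and 17.9 CPM in males, and the sexes overlapped (log2 fold change -0.82, standard error 0.671, edgeR's adjusted p = 0.512). Leaving out 1 mouse moved the log2 fold change of *Agrp* between -1.57 (without female 1) and -0.41 (without male 1), and that of *Npy* between -1.67 (without female 1) and -0.83 (without female 4). The lowest value of *Agrp*, in female 4, rested on 24 counts (2.16 CPM, 95% exact Poisson interval 1.38 to 3.21), while female 2, the next lowest, had 100 counts (12.4 to 18.6 CPM). These intervals cover counting error only.

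Beside the male direction of these genes, the summed levels of markers of other cell types were taken. Microglia markers (5 genes) summed to 161 to 893 CPM in females and 364 to 1761 CPM in males, astrocyte markers (5 genes) to 74.7 to 326 and 245 to 450 CPM, and oligodendrocyte lineage markers (5 genes) to 449 to 1818 and 752 to 1702 CPM, while pan-neuronal markers (5 genes) summed to 1540 to 1906 CPM in females and 1117 to 1408 CPM in males, without overlap. None of these 20 genes passed the adjusted threshold in edgeR's test, and none of the 15 glial markers was at 0 in any library. Male 1, with the highest *Npy* and *Agrp*, had the lowest microglia and oligodendrocyte sums of the males, 364 and 752 CPM. The part of these cell types in the sex values was not tested.

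**Figure D2:**
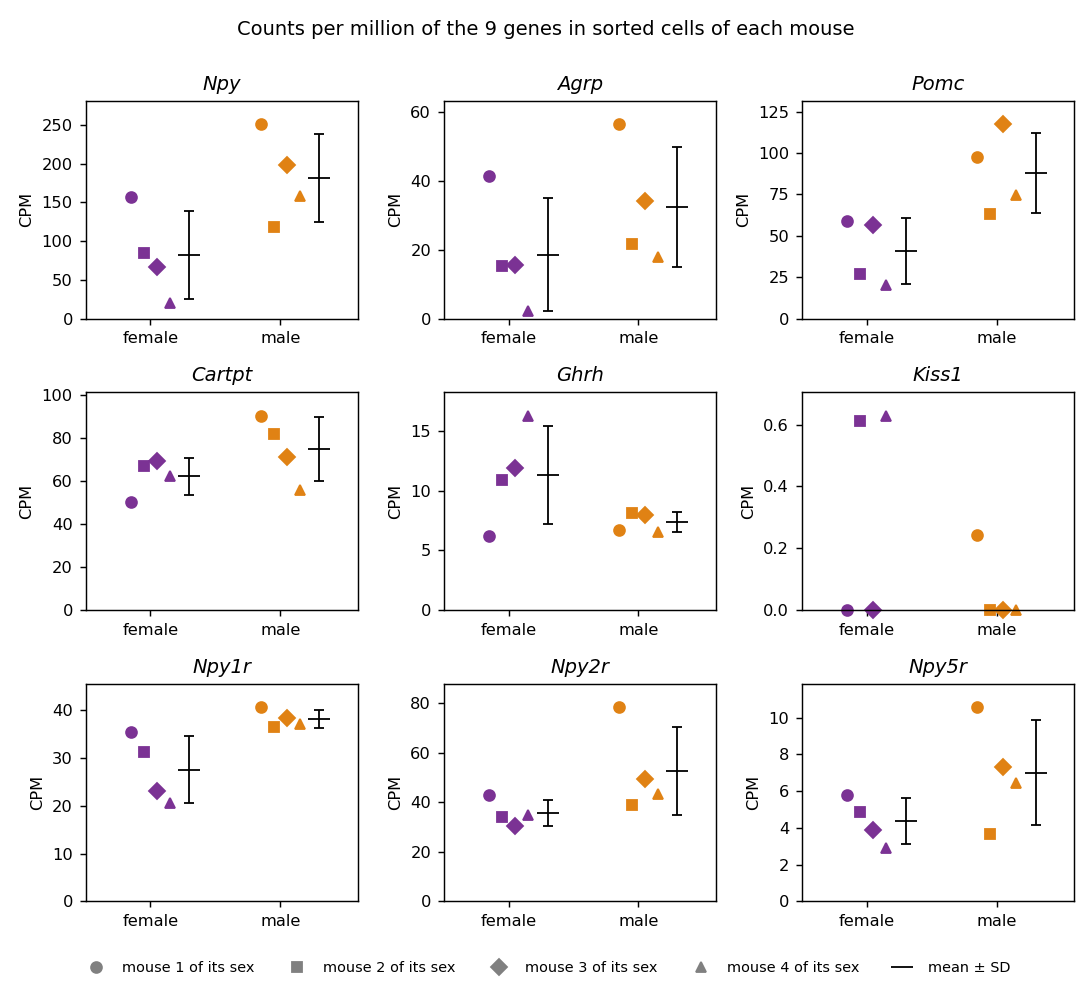
CPM (linear axes from 0) of each gene in the 4 females and 4 males, with a point per mouse and, for every gene but *Kiss1*, the mean ± SD of each sex. The males lie above all females in *Pomc* and *Npy1r*, and female 4 is lowest in *Npy*, *Agrp* and *Pomc* and highest in *Ghrh*.

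Among the receptors, *Npy1r* had 35.4, 31.2, 23.1 and 20.5 CPM in females and 40.6, 36.4, 38.3 and 37.2 CPM in males. The males were tightly grouped above the females, and the lowest of them lay just above female 1. Its log2 fold change was -0.47 (standard error 0.169; edgeR, adjusted p = 0.182). *Npy2r* ranged from 30.3 to 42.7 CPM in females and from 38.8 to 78.4 CPM in males, with male 1 highest (log2 fold change -0.57, standard error 0.216; edgeR, adjusted p = 0.199). *Npy5r* was the lowest of the receptors, at 2.88 to 5.77 CPM in females and 3.67 to 10.6 CPM in males (log2 fold change -0.69, standard error 0.349; edgeR, adjusted p = 0.289). The TPM ratio of *Npy1r* to *Npy5r* was 2.31 to 5.94 over the 8 mice and did not differ detectably between the sexes (exact permutation test, p = 0.629, n = 4 per sex), nor did that of *Npy2r* to *Npy1r*, at 1.20 to 2.04 (exact permutation test, p = 0.943).

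*Ghrh* was the exception in direction. It had 6.22, 10.8, 11.9 and 16.3 CPM in females and 6.68, 8.16, 7.95 and 6.55 CPM in males, so that 3 females lay above every male and female 1 below all of them (log2 fold change 0.63, standard error 0.270; edgeR, adjusted p = 0.234). *Cartpt* was the steadiest peptide gene, at 50.2, 66.9, 69.2 and 62.2 CPM in females and 90.4, 81.9, 71.2 and 55.5 CPM in males. The sexes overlapped (log2 fold change -0.27, standard error 0.158; edgeR, adjusted p = 0.359), and its coefficient of variation over the 8 mice was 19.2%, against 56.6% for *Npy* and 67.9% for *Agrp*. The standard deviation of log2 CPM within the sexes was 1.33 for *Agrp* and 0.926 for *Npy*, above that of 97.7% and 92.8% of all genes tested, and 0.260 for *Cartpt*, above that of 52.0%.

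**Figure D3:**
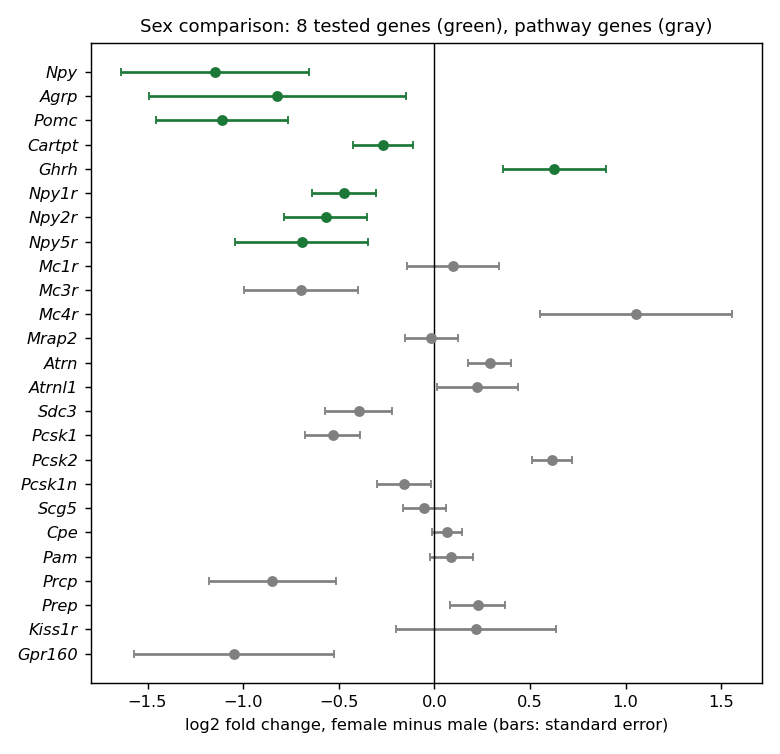
Log2 fold change (female minus male; bars are standard errors from edgeR) of the 8 tested members in green and of tested genes of the NPY, melanocortin, peptide processing and receptor lists in gray. Of the 8 members 7 lie left of 0 and *Ghrh* lies right of it, and none of the genes plotted passed the adjusted threshold.

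Some of the genes varied together from mouse to mouse. Of 28 pairs among the 8 tested members, 12 had a Pearson correlation of log2 CPM past an adjusted p of 0.05 (exact permutation test, 2-sided, Benjamini-Hochberg over the 28), 9 of them positive and 3 negative. Without the 2 mice farthest from the median of 1 gene of the pair, 3 of the 12 kept an exact permutation p under 0.05. The share of passing pairs over all genes was not computed. The permutations ran across both sexes, so a difference between the sexes enters these p-values. *Agrp* and *Npy* had r = 0.96 and Spearman rho = 0.86 (n = 8 mice; exact permutation p = 7.9e-04 and 0.0107, adjusted p = 0.00972 and 0.0333), and r = 0.97 with values centred within each sex. Female 4 was lowest and male 1 highest in both genes. Without these 2 mice r was 0.76 (exact permutation p = 0.108, n = 6), so that the relation did not pass without them. With 1 mouse left out at a time, r was 0.85 to 0.98, and the pair passed the adjusted threshold in 7 of 8 fits. *Npy* exceeded *Agrp* in TPM in all 8 mice, by a ratio of 4.78, 6.94, 5.39 and 11.8 in females and 5.55, 6.80, 7.18 and 11.04 in males (exact permutation test between the sexes, p = 0.714).

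*Npy* and its receptor gene *Npy1r* had r = 0.94 and rho = 0.98 (exact permutation p = 1.2e-04 and 4.0e-04, adjusted p = 0.00347 and 0.0111, n = 8). Centred within sex, r was 0.90, and once females 3 and 4, whose *Npy* lay farthest from the median, were left out it was 0.93 (exact permutation p = 0.00972, n = 6). This was the only pair of the 28 past the adjusted threshold in all 8 fits that left out a mouse. *Npy* and *Pomc* had r = 0.87 and rho = 0.93 (exact permutation p = 0.00337 and 0.00223, adjusted p = 0.0135 and 0.0125), 0.75 centred within sex and 0.90 without females 3 and 4 (exact permutation p = 0.0181). *Pomc* and *Npy1r* both separate the sexes, so only their correlation within the sexes is given, which was 0.43.

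*Npy* and *Npy5r* had r = 0.87 and rho = 0.93 (exact permutation p = 0.00434 and 0.00223, adjusted p = 0.0135 and 0.0125, n = 8), 0.80 centred within sex and 0.85 without females 3 and 4 (exact permutation p = 0.0403, n = 6). Between the receptors, *Npy2r* and *Npy5r* had r = 0.87 and rho = 0.81 (exact permutation p = 0.00409 and 0.0218, adjusted p = 0.0135 and 0.0489), 0.80 centred within sex and 0.79 without female 3 and male 1 (exact permutation p = 0.0681, n = 6).

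*Ghrh* was negatively related to *Npy*, *Agrp* and *Npy1r*. With *Npy* it had r = -0.93 and rho = -0.79 (exact permutation p = 0.00159 and 0.0279, adjusted p = 0.00972 and 0.0489, n = 8), and -0.89 centred within sex. Without females 3 and 4 r was -0.74 (exact permutation p = 0.0944, n = 6), so that this relation too did not pass without those mice. With 1 mouse left out at a time it passed the adjusted threshold in 7 of 8 fits. *Ghrh* with *Npy1r* had r = -0.92 (exact permutation adjusted p = 0.00972) but rho = -0.69 (adjusted p = 0.0972), and with *Agrp* r = -0.87 and rho = -0.79 (exact permutation adjusted p = 0.0135 and 0.0489). *Cartpt* passed with none of the other 7 members, with r between 0.03 and 0.43. Without female 4 the number of pairs past the threshold was 4 in place of 12.

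**Figure D4:**
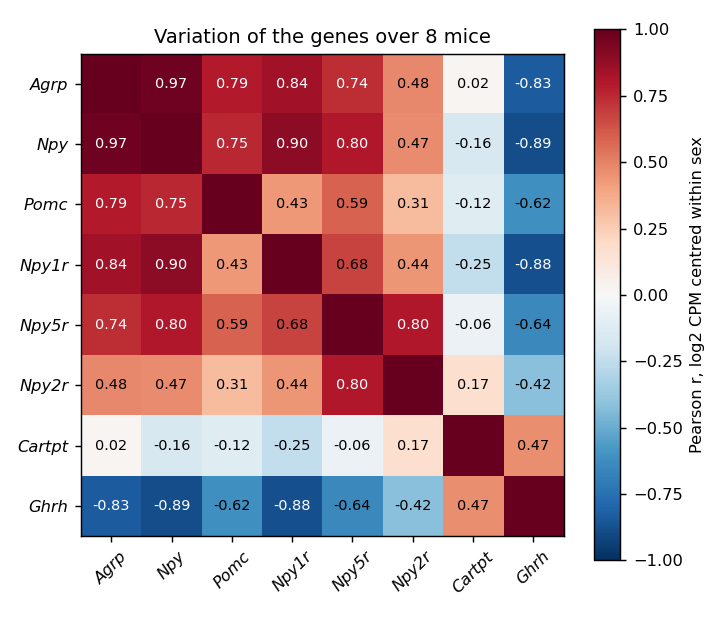
Pearson r between the 8 tested genes over the 8 mice, computed on log2 CPM after the mean of each sex was taken off (red positive, blue negative). *Agrp* and *Npy* reach 0.97, *Ghrh* is negative with 6 of the other 7 genes, and *Cartpt* lies between -0.25 and 0.47.

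Female 4, lowest in *Npy*, *Agrp*, *Pomc*, *Npy1r* and *Npy5r*, differed from the other libraries in genes of neighbouring nuclei as well. *Pmch*, which marks melanin-concentrating hormone neurons of the lateral hypothalamus, had 13.2 CPM in female 4 and at most 0.407 CPM in any other mouse. *Hcrt* of the same region was highest in female 2, at 1.22 CPM against 0.270 CPM in female 4. The 6 genes of the ventromedial nucleus summed to 334 CPM in female 4, against 140 to 200 CPM in the other females and 84.1 to 223 CPM in males. Among them, *Fezf1* (51.6 CPM), *Adcyap1* (80.7 CPM), *Slc17a6* and *Nptx2* were highest in female 4. *Nr5a1* was highest in male 4, at 8.94 CPM against 5.40 CPM in female 4, and *Sox14* had 1.44 CPM in female 4, within the range of the other mice. Their part in the low values of female 4 was not tested.

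**Figure D5:**
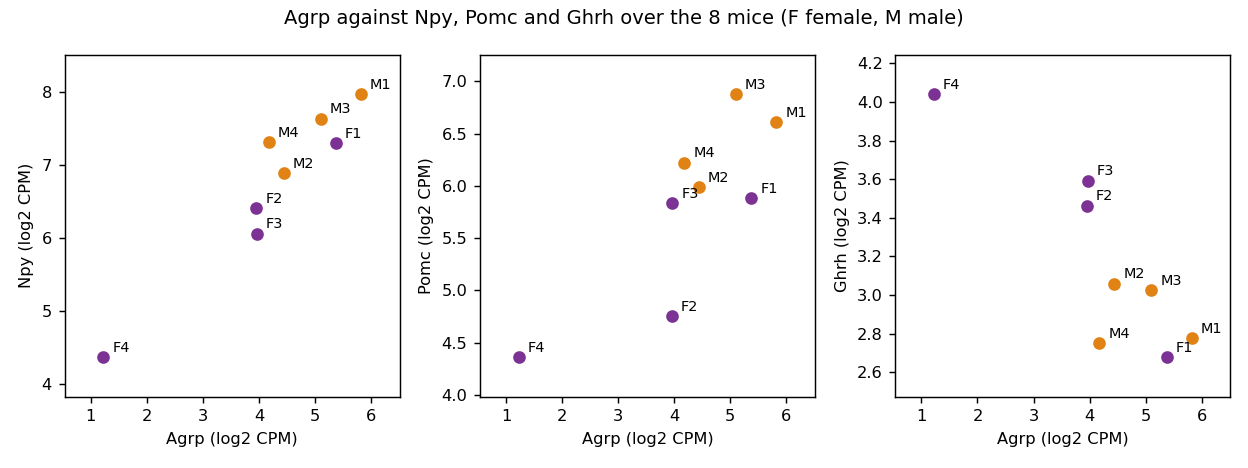
*Agrp* on the horizontal axis against *Npy*, *Pomc* and *Ghrh* on the vertical axes, all in log2 CPM, with each mouse labeled (F1 to F4 females, purple; M1 to M4 males, orange). *Npy* and *Pomc* tend to be higher and *Ghrh* lower in mice with more *Agrp* (Pearson r = 0.96, 0.82 and -0.87). Female 4 stands alone at the low *Agrp* end. Without female 4 and male 1, r was 0.76, 0.54 and -0.68 (exact permutation p = 0.108, 0.311 and 0.131, n = 6).

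Genes that mark the arcuate cell types were set beside the members. The lists hold members themselves: *Agrp* and *Npy*, *Pomc* and *Cartpt*, *Ghrh*, and *Kiss1*. Their counts and medians therefore include the members tested. *Npy* and *Pomc* are among the genes at an unadjusted p under 0.05 in edgeR's test given for their lists. In the AgRP/NPY neuron list, 0 of 9 genes passed the adjusted threshold between the sexes in edgeR's test (4 at an unadjusted p under 0.05), 8 of 9 had a log2 fold change below 0 and the median was -0.70, against -0.0043 over all genes tested. *Otp*, a transcription factor of the developing and adult arcuate, had 148 to 297 CPM, and *Calcr*, the calcitonin receptor, 25.6 to 77.5 CPM. Of the other list genes, *Acvr1c*, an activin receptor of the same list, had 19.97 to 29.6 CPM in females and 29.8 to 66.5 CPM in males (log2 fold change -1.09, standard error 0.236, edgeR's adjusted p = 0.0798), and *Ghsr*, the ghrelin receptor, had 15.1 to 19.6 and 19.98 to 33.5 CPM (log2 fold change -0.68, standard error 0.173, edgeR's adjusted p = 0.105). All males lay above all females in both. With DESeq2 the adjusted p of *Ghsr* was 0.0164, and *Acvr1c* passed in 3 of 18 alternatives, DESeq2 among them.

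Ranked by correlation with *Agrp* within the sexes among the other 15193 genes tested, *Npy* was number 4 (r = 0.97) and *Corin*, a protease gene that marks AgRP neurons, was number 19 (r = 0.95). *Corin* had 8.77, 6.57, 5.87 and 1.44 CPM in females and 20.2, 6.05, 13.8 and 7.81 CPM in males, so that female 4 was lowest and male 1 highest, as in *Agrp*. Of the rest of the AgRP/NPY list, *Calcr* ranked 433, *Mc3r* 710, *Otp* 881, *Acvr1c* 1431 and *Ghsr* 2198, and *Lepr*, the leptin receptor, had a negative r of -0.49. The 3 genes with the highest r to *Agrp* were *Btd*, *Mapk8ip1* and *Tmem14c* (0.99, 0.98 and 0.98), and those for *Npy* were *Cpt2*, *Tmem14c* and *Med26* (0.99, 0.98 and 0.98). Those for *Pomc* included *Mtbp* and *Ppp2r2a* (both 0.97), for *Npy1r* they were *Tmem248*, *Sema6a* and *Eif2s3x*, and for *Ghrh* *Ttc21a*, *Zdhhc16* and *1700029I15Rik*. Those for *Cartpt* included *Rbfa* and *Pfn4*, for *Npy2r* they were *Pbrm1*, *Arhgap35* and *Csrnp3*, and for *Npy5r* *Ngrn*, *Rnf11* and *Sdha*. These ranks over 8 mice are a description, and the mice that set them are shared by all genes.

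In the POMC neuron list, 0 of 8 genes passed in edgeR's test (2 at an unadjusted p under 0.05) and the median log2 fold change was -0.35. Of its genes 6 had a log2 fold change below 0 and 2, *Isl1* and *Nr5a2*, above 0. *Isl1*, a transcription factor needed for *Pomc* expression, had 53.2 to 61.8 CPM in females and 34.6 to 60.9 CPM in males (log2 fold change 0.31, standard error 0.175, edgeR's adjusted p = 0.333). *Tbx3*, a transcription factor of POMC and AgRP neurons, had 31.3 to 62.6 CPM in females and 54.4 to 123 CPM in males (log2 fold change -0.72, standard error 0.270, edgeR's adjusted p = 0.196). In the GHRH neuron list, 1 of 7 genes passed. Its median log2 fold change was -0.23, with 5 genes below 0 and 2, *Ghrh* itself and *Th*, above 0. *Gal*, which encodes galanin, had 13.1, 19.6, 14.0 and 20.4 CPM in females and 40.3, 44.6, 34.4 and 33.5 CPM in males, and was higher in every male (log2 fold change, female minus male, -1.19, standard error 0.175, edgeR's adjusted p = 0.0448). Its call was lost in 10 of 18 alternatives, with adjusted p up to 0.152. *Gpr101*, an orphan receptor gene, had 125 to 194 CPM, and *Th*, tyrosine hydroxylase, 16.4 to 26.6 CPM.

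In the KNDy neuron list, 1 of 5 tested genes passed. *Esr1*, estrogen receptor alpha, had 122, 124, 96.8 and 159 CPM in females and 59.4, 45.3, 42.0 and 51.8 CPM in males (log2 fold change 1.34, standard error 0.161, edgeR's adjusted p = 0.0167). That call was kept in 13 of 18 alternatives, and it was lost with the replicate number as a block and without female 2, male 2, male 3 or male 4. *Pdyn*, with values lower in females (log2 fold change -0.88, standard error 0.136, edgeR's adjusted p = 0.057), and *Tac2*, with values higher in females (log2 fold change 1.41, standard error 0.510, edgeR's adjusted p = 0.185), did not pass, and the sexes did not overlap in *Pdyn*. *Pdyn* passed in 7 of 18 alternatives, with an adjusted p of 3.7e-06 in DESeq2, and *Tac2* in DESeq2 alone, with an adjusted p of 0.0329.

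The ligands, receptors and accessory proteins that work with the members ranged from 0 in all 8 libraries to 474 CPM. Of the NPY family, *Pyy* and *Ppy*, which encode the other ligands, were at 0 in all 8 libraries, and the remaining receptors *Npy4r* and *Npy6r* had at most 1.22 and 0.252 CPM. In the melanocortin list, which includes *Pomc* and *Agrp*, 0 of 9 tested genes passed in edgeR's test (4 at an unadjusted p under 0.05, median log2 fold change -0.01). *Mc3r* and *Mc4r*, the melanocortin receptors of the brain, had 6.39 to 18.4 and 1.06 to 8.19 CPM, with log2 fold changes of -0.70 (standard error 0.297) and 1.05 (standard error 0.503) and adjusted p = 0.231 and 0.267 in edgeR's test. *Sdc3*, a syndecan that takes part in AgRP signaling, had 228 to 474 CPM, and *Atrn*, attractin, 109 to 185 CPM. *Ghrhr*, the receptor for growth hormone-releasing hormone, was at 0 in all 8 libraries, while *Kiss1r* had 1.39 to 4.07 CPM and *Gpr160*, proposed as a CART receptor, 0.493 to 3.94 CPM.

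The enzymes that cut and finish neuropeptides, and the proteins that regulate them, were present in all mice. *Cpe* and *Pam* encode enzymes, *Pcsk1n* an inhibitor of PCSK1 and *Scg5* a chaperone of PCSK2. *Pcsk1n*, *Cpe*, *Pam* and *Scg5* had means of 701, 473, 359 and 196 TPM, and 0 of 8 genes of the list passed in edgeR's test (3 at an unadjusted p under 0.05, median log2 fold change 0.0067). Both proprotein convertases that cut POMC lay apart between the sexes without overlap and in opposite directions. *Pcsk1* had 39.2 to 46.7 CPM in females and 48.0 to 76.7 CPM in males (log2 fold change -0.53, standard error 0.142, edgeR's adjusted p = 0.113), and *Pcsk2* 183 to 231 CPM in females and 118 to 149 CPM in males (log2 fold change 0.61, standard error 0.105, edgeR's adjusted p = 0.0655). Both passed with DESeq2, with adjusted p = 0.0189 and 9.3e-05.

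*Sst* itself had 396, 464, 526 and 292 CPM in females and 368, 369, 303 and 301 CPM in males (log2 fold change 0.32, standard error 0.167, edgeR's adjusted p = 0.302), and the markers of GABAergic neurons *Gad1*, *Gad2* and *Slc32a1* lay between 113 and 481 CPM in every library.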

How the data were processed

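RNA of sorted TN SST neurons was sequenced as 1 library per mouse, 4 females and 4 males (total RNA, SMARTer stranded kit). The authors assigned reads to mouse transcripts with kallisto 0.46.2 on mm10 and deposited, in 2 blocks per mouse, the estimated count of each transcript, not normalized. The authors also deposited TPM, handled here as a score because both blocks together sum to more than 1000000. What the blocks stand for is not given in the sources used here.

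Estimated counts of both blocks were summed, joined to GENCODE M21 genes (0.429% to 0.611% of counts unmatched), summed per gene and rounded, and TPM is the mean of the blocks. In units of 1000000, totals were 7.83 to 17.6 per mouse, and TMM factors were 0.841 to 1.16. Sexes were compared with edgeR 4.0.16 in R 4.3.3 (filterByExpr, quasi-likelihood test, sex as the only term), with DESeq2 1.42.0, the tool the study's methods name, as an alternative. The fits were tested on simulated data. Log2 CPM used a prior count of 2, and exact tests in scipy 1.17.1 were 2-sided.

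Members and lists were chosen with earlier results of these data known. Named are all members, called list genes, up to 4 genes per list by mean TPM and the 3 genes most like each member, of which some are not reported here. All other list genes that are named were added after their values were seen.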

Additional observations from a re-analysis of the deposited data

Results flagged for a closer look

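Dixon's test was applied to each sex of 4 mice for the 9 members, *Sst* and the 14 summed marker lists, 48 groups in all, and it picked out 4, where chance gives about 1 in 20. *Kiss1* in male 1 stood apart, with 0.244 CPM against 0 in the other males, a value of 3 counts at a locus whose reads are shared with other gene models. With 0 in all other males, any count in male 1 would have been picked out. The ventromedial nucleus list summed to 223 CPM in male 4, and the nearest male had 98.7 CPM. The pituitary list summed to 2.76 CPM in female 3, below the nearest female at 6.44 CPM. The oligodendrocyte lineage list summed to 752 CPM in male 1, the male with the highest *Npy* and *Agrp*, and the nearest male had 1587 CPM. None of the values of *Agrp*, *Npy*, *Pomc*, *Cartpt*, *Ghrh* or the 3 receptors stood apart by this test.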

How the results depend on the processing

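All 8 tested members kept their direction and stayed above the adjusted threshold in all 18 alternatives (144 combinations), and the smallest adjusted p was 0.0608, for *Npy1r* without female 1. The count of genes called over the whole table was 24 and moved to 1014 with DESeq2, 13 with a transcript length offset and 8 to 415 when a mouse was left out (415 without female 1, 411 without male 1). List genes called were 2, against 14 with DESeq2, 1 with upper-quartile factors and 0 to 8 when a mouse was left out. With the replicate number as a block, 1 gene of the table, 0 list genes and 0 members were called, and *Esr1* had a log2 fold change of 1.33. The same-numbered females and males deviated with r of -0.40, -0.16, 0.04 and 0.07. Whether the numbers stand for a shared batch was not tested and is not given in the sources used here. Neighbours separated in the order of levels were 4, against 0 in females alone and 0 in males alone, where 4 mice cannot give an exact p below 0.125, and 3 to 4 when a mouse was left out. For some neighbours the sign turned against the difference over all 8 mice in log2(TPM + 0.1). The difference of *Ghrh* and *Npy2r* was -2.23 in log2 CPM, which is not per length, against 0.60. That of *Agrp* and *Ghrh* was -0.38 in females alone, against 0.54. For *Pomc* and *Cartpt* the difference was -0.14 over all 8 mice, as *Cartpt* was higher on this scale though its mean TPM was lower. It was 0.34 in males alone, with the sign turned. When a mouse was left out it lay between -0.29 and 0.0638, above 0 without female 4. Pairs of members past the threshold were 12, and 4 to 14 when a mouse was left out. The cause of these shifts was not tested. The lowest counts were 0 for *Kiss1*, 24 for *Agrp* and 32 for *Npy5r*, so counting error is widest there.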

Other observations

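The transcripts within a gene also differed between mice. Ghrh-201 and Ghrh-202, whose starts lie 9229 bases apart, held 29.2% and 70.8% of the *Ghrh* counts over all mice. The share of Ghrh-202 was 7.69%, 1.81%, 78.5% and 100% from female 1 to female 4, and males 1 to 4 had 68.4%, 70.9%, 70.9% and 100%. The TATA box printed above stands before the start of Ghrh-202. The estimate of Ghrh-201 was the same, 25.9 counts, in males 1, 2 and 3, and only 17.3% of its 31-base words are its own, so the split is kallisto's estimate over few reads. For *Agrp*, Agrp-201 held 99.1% of the counts, for *Pomc*, Pomc-202 held 87.9%, and for *Npy5r*, Npy5r-203 held 70.1%.

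The somatostatin receptors were set beside the NPY receptors in the same cells. *Sstr1* and *Sstr2* had means of 24.97 and 21.0 TPM, near *Npy2r* at 30.7 and *Npy1r* at 20.2 TPM. None of the 6 tested genes of the somatostatin list passed between the sexes in edgeR's test, with 2 at an unadjusted p under 0.05. The orexin gene *Hcrt* of the lateral hypothalamus had at most 1.22 CPM and was at 0 in 5 mice.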
